A study of Mus musculus with 18 samples.

Results

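The genes that write and erase DNA methylation were followed through polysome gradients of mouse embryonic stem cells (ESCs) with and without the RNA helicase DDX6. They are 8 of the 51467 genes counted, listed by name with earlier results of these data known. The maintenance pair is Dnmt1 and Uhrf1, the de novo genes are Dnmt3a, Dnmt3b and Dnmt3l, and the oxidases are Tet1, Tet2 and Tet3. All 8 passed the filter on low counts, which kept 12705 genes. The cells were V6.5 ESCs, either WT (wild-type) or carrying a Ddx6 knockout (Ddx6 KO, or KO), both cultured with serum, LIF and 2i, a pair of inhibitors of MEK and GSK3 that holds ESCs in a naive state. Shortly before lysis the cells of both genotypes were treated with cycloheximide, which freezes ribosomes on mRNA. From each sucrose gradient the mRNA bound by a single ribosome (monosome), by 2 to 4 ribosomes (low polysome) and by 4 or more (high polysome) was collected, and 3 gradients per genotype gave 18 libraries in 6 groups of 3. The KO cells were 2 clones made by genome editing, with gradient 1 from clone 1 and gradients 2 and 3 from clone 2, so a difference between clones cannot be told apart from a difference between gradients. Nothing in the labels says that the gradients of a genotype came from separate cultures, and p-values may then measure technical spread only.

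Cytosine methylation at CpG dinucleotides is laid down on unmethylated DNA by DNMT3A and DNMT3B, and DNMT3L is a relative without catalytic activity that binds and stimulates both. After replication, UHRF1 recognises half-methylated CpGs and recruits DNMT1 to copy the pattern. TET1, TET2 and TET3 oxidise 5-methylcytosine, a first step toward its removal. Naive ESCs in 2i are known for low DNA methylation, and cells that leave this state for the primed epiblast are known to raise DNMT3A and DNMT3B. Neither methylation nor protein was measured here, only mRNA in ribosome-bound fractions.

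Total gene counts ran from 2543617 to 11474550 per library, and the WT monosome libraries, at up to 4894677, were the shallowest. The members were each covered by 48 to 4363 counts per library. Levels are given as CPM, counts scaled to library size and then by the TMM method. Reads come from transcript 3′ ends alone, so CPM values are not divided by length and members can be set side by side as 3′ end counts. The targeted gene Ddx6 was lower in KO by 2.72 on the log2 scale averaged over the fractions (limma, SE 0.36, adjusted p = 3.20e-05). No KO library reached the level of a WT one, but KO levels ran widely, from 17.6 to 57.5 CPM in the monosome, 17.7 to 82.7 CPM in the low polysome and 9.68 to 55.3 CPM in the high polysome, beside WT means of 153, 189 and 190 CPM. The ESC markers Pou5f1, Sox2, Nanog, Esrrb, Zfp42 and Tdgf1 were all present, and their summed level was 1364 to 2625 CPM in WT libraries and 1407 to 2305 CPM in KO libraries. Primitive endoderm markers summed to at most 8.91 CPM and fibroblast markers to at most 11.1 CPM in any library. The fibroblast collagen gene Col3a1 was at 0 everywhere. Trophoblast markers were at 2.82 to 6.90 CPM in WT and 9.23 to 22.8 CPM in KO, where Krt7 made up most of it. From monosome to high polysome, Cdx2 averaged 0.069, 0.085 and 0.17 CPM in WT and 2.06, 3.65 and 1.51 CPM in KO. Eomes went the other way, at 3.95, 3.18 and 5.66 CPM in WT and 3.04, 2.85 and 3.95 CPM in KO. Elf5 averaged at most 0.13 CPM in any group. The part of these markers in the results was not tested. In bulk libraries, fewer cells of a type and less RNA per cell cannot be told apart.

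DDX6 acts with microRNAs (miRNAs), so the 3′ UTRs of the members were searched for the sites of 4 families. The ESCC miRNAs are the ESC-enriched family, let-7 marks differentiating cells, and miR-29 and miR-26 are known for sites in DNMT3 and TET mRNAs. One mature miRNA of each, from RefSeq on GRCm38.p6, is shown with its seed (bases 2 to 8) in capitals, because the seed fixes the site that was searched.
miR-294-3p (ESCC): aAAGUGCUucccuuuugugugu
let-7a-5p: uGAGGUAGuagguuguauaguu
miR-29b-3p: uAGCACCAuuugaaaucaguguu
miR-26a-5p: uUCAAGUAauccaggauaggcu
The 8mer sites were AGCACTTA for ESCC, CTACCTCA for let-7, TGGTGCTA for miR-29 and TACTTGAA for miR-26, read on the transcript's strand in the longest annotated 3′ UTR, and the 7mer was the same without the last base.

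The miR-29 8mer stood in 4 of the 8 members, Dnmt3a, Tet1, Tet2 and Tet3, and in 3.14% of the 11750 tested genes with a 3′ UTR. The miR-26 8mer was found in the same 4 members and in 4.82% of those genes. For let-7 the 8mer occurred in Tet3 only among the members, against 3.73% of genes. No member held the ESCC 8mer, which was in 3.5% of genes, and the ESCC 7mer was in Tet1, Tet2 and Tet3, against 17.4% of genes. Dnmt3b held a single miR-29 7mer, while Dnmt1, Uhrf1 and Dnmt3l held none of the searched letters. The 3′ UTRs searched were 6696 nt for Dnmt3a, 7962 nt for Tet1, 3058 nt for Tet2 and 5669 nt for Tet3, and 1331 nt or less for the other 4 members, against a median of 1136 nt over those genes. Longer UTRs hold more matches, and a match is letters only. Tet3, with 8 miR-29 matches, had the most, and the pair of its matches that were 8mers is shown with the match in capitals, beside the pair in Tet2 and the pair in Dnmt3a.
Tet3, chr6:83364325-83364354, minus strand: agtctaataaaTGGTGCTAtggtgtttcaa
Tet3, chr6:83363766-83363795, minus strand: ccgcttttagtTGGTGCTAaacttctccct
Tet2, chr3:133466162-133466191, minus strand: ttaacattaaaTGGTGCTAcaaatggtgtt
Tet2, chr3:133465105-133465134, minus strand: tcacatcacgaTGGTGCTAcccagattgct
Dnmt3a, chr12:3911394-3911423, plus strand: ggggaggtagcTGGTGCTAgcaccagggtc
Dnmt3a, chr12:3911463-3911492, plus strand: gggtcccaagcTGGTGCTAattcctctcat
All of these lie in 3′ UTR exons on GRCm38.

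The de novo genes moved in opposite directions in KO cells. Dnmt3b fell in every fraction, Dnmt3a rose in every fraction, and Dnmt3l rose in the low polysome. Dnmt3b (ENSMUSG00000027478.15, GRCm38 chr2:153649450-153687730) was at 75.7, 67.8 and 55.9 CPM in the WT monosome of gradients 1 to 3 and at 30.6, 20.3 and 21 CPM in the KO monosome. In the low polysome it was at 67.4, 62.5 and 67.0 CPM in WT and 30.1, 26.7 and 28.8 CPM in KO, and in the high polysome at 76.1, 64.5 and 72.7 CPM in WT and 54.2, 48.8 and 46.0 CPM in KO. The groups did not overlap in any fraction, and the gap was narrowest in the high polysome. In limma the monosome log2 change was -1.47 (SE 0.16, adjusted p = 6.43e-07), that of the low polysome -1.20 (SE 0.15, adjusted p = 1.70e-06) and that of the high polysome -0.52 (SE 0.14, adjusted p = 0.00433). As a fold, Dnmt3b was 2.77-fold lower in the monosome and 1.43-fold lower in the high polysome.

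Markers of the primed epiblast, the neighbouring cell state, were lower in the same KO libraries. Their summed level was 36.1 to 80.4 CPM in WT and 11.7 to 26.2 CPM in KO. Otx2, a transcription factor of that state, averaged 51.8, 29.5 and 44.1 CPM in the WT monosome, low polysome and high polysome and 7.99, 5.42 and 7.58 CPM in KO. Pou3f1, another of its transcription factors, averaged 14.1, 11.4 and 29.4 CPM in WT and 7.57, 8.85 and 15.5 CPM in KO. Of the 4 markers, 2 were above 1 CPM in each genotype, and Fgf5 was at 0 in every library. Their part in the Dnmt3b result was not tested.

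Dnmt3a (ENSMUSG00000020661.15, chr12:3807030-3914443) was at 27.1, 27.6 and 37.5 CPM in the WT monosome and 43.6, 40.1 and 42.1 CPM in the KO monosome. Its low polysome level was 31.1, 28.6 and 31.8 CPM in WT and 46.1, 55.0 and 47.7 CPM in KO. The high polysome held 40.2, 34.9 and 41.0 CPM in WT and 69.5, 83.5 and 88.7 CPM in KO. The WT and KO values were apart in all 3 fractions, furthest in the high polysome. Monosome Dnmt3a rose by 0.44 on the log2 scale in limma (SE 0.16, adjusted p = 0.0329), low polysome Dnmt3a by 0.69 (SE 0.14, adjusted p = 4.01e-04) and high polysome Dnmt3a by 1.05 (SE 0.13, adjusted p = 1.94e-06). The monosome call was lost with every library thinned to equal depth (log2 change 0.46, adjusted p = 0.0821) and without WT gradient 1 or 2 or KO gradient 1 or 3 (adjusted p 0.0580 to 0.178).

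Dnmt3l (ENSMUSG00000000730.13, chr10:78042287-78063622) had the highest 3′ end counts of the 8 members averaged over the fractions, though Tet1 and Tet2 were above it in the WT low polysome. In the low polysome it was at 190, 149 and 176 CPM in WT and at 230, 320 and 248 CPM in KO, with no overlap, and the log2 change was 0.62 (limma, SE 0.17, adjusted p = 0.00561). Monosome levels were 220, 211 and 198 CPM in WT and 277, 195 and 191 CPM in KO, and high polysome levels were 452, 284 and 307 CPM in WT and 436, 380 and 446 CPM in KO. In both of these fractions the genotypes overlapped and the difference missed the threshold (adjusted p = 0.836 and 0.150), although the high polysome difference passed it without WT gradient 1 (log2 change 0.43, adjusted p = 0.0430). The annotated gene Aire overlaps Dnmt3l on the opposite strand, and counting was by strand.

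**Figure D1:**
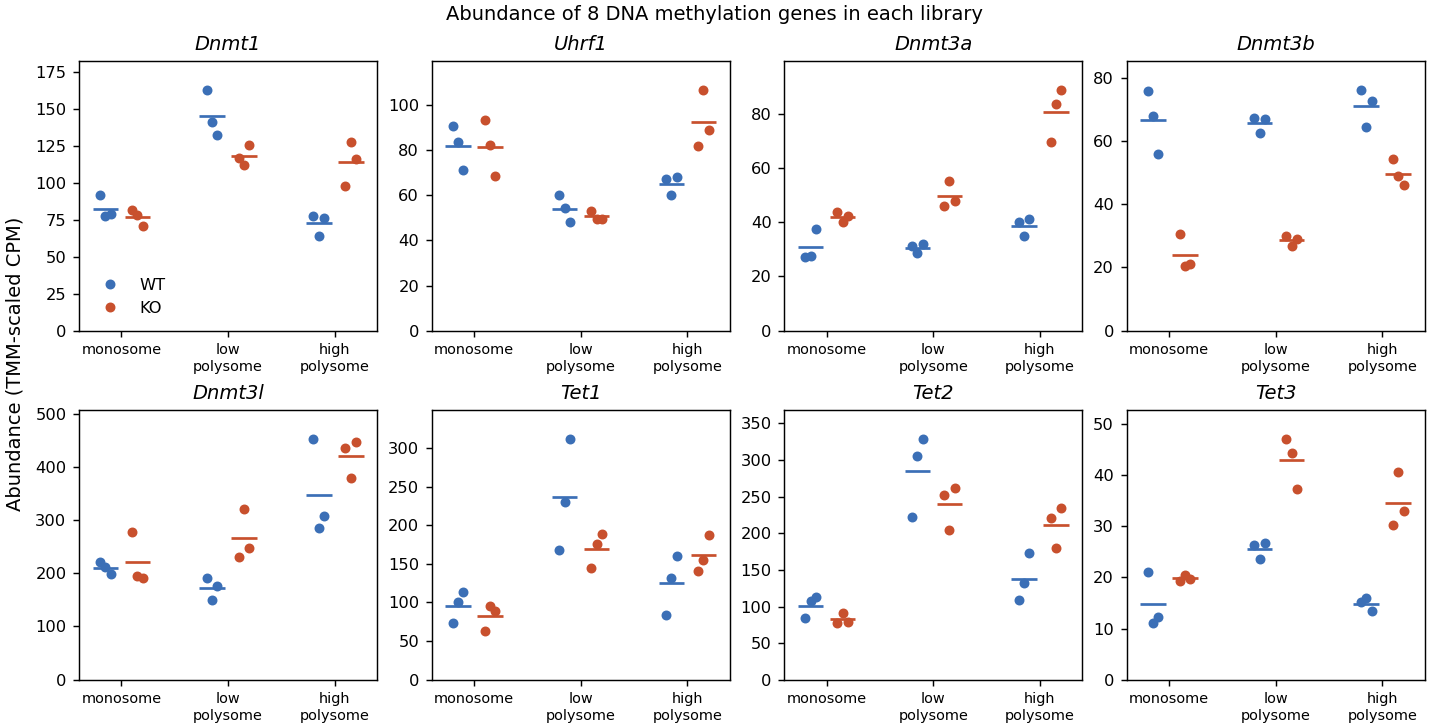
TMM-scaled CPM of the 8 members in each library, by fraction, with WT in blue and KO in red, points for libraries and bars for group means (n = 3). Dnmt3b lies lower in KO and Dnmt3a higher in KO in all 3 fractions, while Dnmt1, Uhrf1, Tet2 and Tet3 separate in the high polysome.

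The count ratio of Dnmt3a to Dnmt3b within a library, which no scaling touches, was higher in KO. A ratio alone does not show which of the genes moved. This ratio and 3 others were chosen after the values had been seen and compared in each fraction, 12 comparisons in all. Dnmt3a counts were 0.358, 0.408 and 0.670 of Dnmt3b counts in the WT monosome, and 1.43, 1.98 and 2.00 of them in the KO monosome. The mean ratio was 0.465 ± 0.0094 (SD, n = 3) in the WT low polysome and 1.75 ± 0.27 in the KO low polysome. In the high polysome it was 0.544 ± 0.018 in WT and 1.64 ± 0.33 in KO. Dnmt3b was thus the more counted of both in all 9 WT libraries and Dnmt3a in all 9 KO libraries. The exact permutation test gave p = 0.1 in each fraction (two-sided, n = 3), the smallest that 3 against 3 allow, or 0.171 adjusted over the 12 comparisons. Dnmt3l counts were 3.19, 2.61 and 4.86 times Dnmt3b counts in the WT monosome, low polysome and high polysome and 9.23, 9.41 and 8.51 times in KO, also at an exact p of 0.1 in each.

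**Figure D2:**
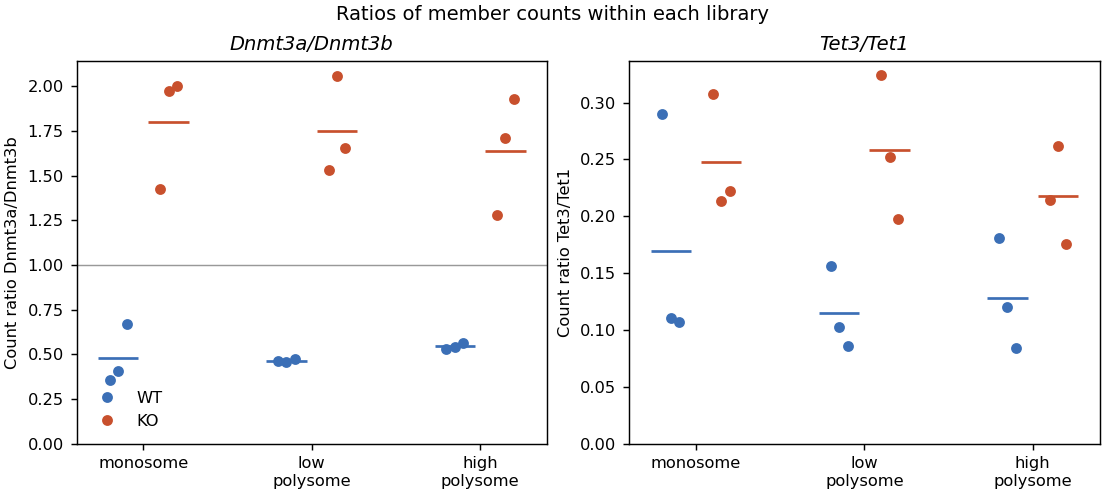
Ratio of Dnmt3a to Dnmt3b counts (left) and of Tet3 to Tet1 counts (right) in each library, WT in blue and KO in red, with bars at group means (n = 3). All WT ratios of Dnmt3a to Dnmt3b lie at or below 0.670 and all KO ratios at or above 1.28.

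For the maintenance pair the difference between genotypes passed the threshold in the high polysome only, where both rose in KO. Dnmt1 (ENSMUSG00000004099.16, chr9:20907209-20959888) was there at 77.6, 63.8 and 76.4 CPM in WT and at 98.1, 128 and 116 CPM in KO, which do not overlap. The log2 change was 0.65 (limma, SE 0.13, adjusted p = 3.23e-04). Monosome levels were 92.0, 77.4 and 78.7 CPM in WT and 82.0, 78.3 and 71.2 CPM in KO, which overlap. In the low polysome, where WT Dnmt1 had its highest CPM, WT held 163, 142 and 133 CPM and KO 117, 113 and 126 CPM, all below WT. That difference, at -0.30 (SE 0.13), missed the threshold in limma (adjusted p = 0.0580) and passed it in the DESeq2 Wald test (adjusted p = 0.0470), with scaling by library size alone (adjusted p = 0.0465) and without WT gradient 3 (adjusted p = 0.0470).

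Uhrf1 (ENSMUSG00000001228.14, chr17:56303321-56323486), whose protein brings DNMT1 to replicated DNA, was at 67.0, 60.0 and 68.1 CPM in the WT high polysome and at 82.0, 107 and 88.9 CPM in KO. Every KO value was above every WT value, and the log2 change was 0.50 (limma, SE 0.14, adjusted p = 0.00487). It was 0.37 at equal depth (adjusted p = 0.0706). The genotypes overlapped in the monosome, with 90.8, 83.4 and 71.1 CPM in WT and 93.4, 82.4 and 68.6 CPM in KO. They overlapped in the low polysome too, where WT had 59.9, 54.5 and 47.9 CPM and KO had 52.9, 49.4 and 49.6 CPM.

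Of the oxidases, Tet3 rose in all 3 fractions, though with overlap in the monosome. Tet2 rose in the high polysome, and Tet1 passed the threshold in none. Tet3 (ENSMUSG00000034832.15, chr6:83362373-83456392) had the lowest 3′ end counts of the 8 averaged over the fractions, though Dnmt3b was below it in the KO low polysome. In the high polysome it was at 15.3, 15.9 and 13.4 CPM in WT and 30.3, 40.5 and 32.9 CPM in KO, and in the low polysome at 26.2, 23.5 and 26.6 CPM in WT and 47.0, 44.2 and 37.3 CPM in KO. Both fractions kept the genotypes apart, with log2 changes of 1.21 (limma, SE 0.16, adjusted p = 5.91e-06) and 0.73 (SE 0.16, adjusted p = 6.25e-04). In the monosome WT gave 21.1, 11.2 and 12.2 CPM and KO gave 19.3, 20.4 and 19.8 CPM, so WT gradient 1 lay above every KO value. The log2 change there was 0.55 (SE 0.21, adjusted p = 0.0441). It missed the threshold with the size factors of DESeq2 (adjusted p = 0.0511), in edgeR and DESeq2 (0.0636 and 0.0609), at equal depth (0.272), and without WT gradient 2 or 3 or any of the KO gradients (0.0555 to 0.267).

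Tet2 (ENSMUSG00000040943.12, chr3:133463679-133544390) was at 108, 132 and 172 CPM in the WT high polysome and at 220, 180 and 235 CPM in KO. All KO values exceeded all WT values, by a log2 change of 0.64 (limma, SE 0.17, adjusted p = 0.00490). Tet2 in the low polysome was at 222, 305 and 329 CPM in WT and 252, 205 and 262 CPM in KO, and in the monosome at 84.0, 107 and 113 CPM in WT and 77.1, 91.4 and 79.1 CPM in KO, with overlap in both. Tet1 (ENSMUSG00000047146.16, chr10:62804570-62899118), which with Tet2 is the main TET gene of ESCs, was at 84.3, 132 and 160 CPM in the WT high polysome and 141, 155 and 187 CPM in KO. Its low polysome levels were 168, 230 and 312 CPM in WT and 145, 175 and 188 CPM in KO, and its monosome levels 72.9, 101 and 114 CPM in WT and 62.6, 95.9 and 88.8 CPM in KO. Tet1 thus overlapped between genotypes in all 3 fractions. Calls for these 2 genes turned on single gradients: without WT gradient 3 the high polysome difference of Tet1 passed (log2 change 0.59, adjusted p = 0.0364), and without WT gradient 1 the low polysome differences passed for Tet1 (-0.67, adjusted p = 0.0102) and Tet2 (-0.41, adjusted p = 0.0465), that of Tet1 also at equal depth (-0.55, adjusted p = 0.0425). Gm48353, an annotated transcript on the same strand within Tet1, had up to 133 counts, so its reads and those of Tet1 are uncertain.

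Against the whole table, these counts of calls were read beside how often any gene was called. In the monosome 3 of 8 members were called, where 38.6% of all genes were (18.6% higher and 20.1% lower in KO). In the low polysome 4 of 8 were called, against 47.7% (23.4% higher and 24.3% lower). In the high polysome 6 of 8 were called, against 46.5%, and 5 of 8 were higher and 1 lower, against 25.3% and 21.1%. The median log2 difference of the members there was 0.57, and that of all genes was -0.0072. In the monosome and low polysome the shares were near the background.

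Averaged over the 3 fractions of a gradient, which leaves out mRNA without ribosomes, 4 members differed in abundance. Each fraction was weighted equally, whatever RNA it held, so a shift between fractions can move this value too. Dnmt3b fell by 1.06 on the log2 scale (limma-trend, SE 0.11, adjusted p = 2.67e-06), and Dnmt3a rose by 0.73 (SE 0.10, adjusted p = 4.30e-05). Tet3 rose by 0.79 (SE 0.12, adjusted p = 8.41e-05) and Dnmt3l by 0.33 (SE 0.10, adjusted p = 0.0126). The genotypes did not overlap for any of these 4, and how many of all genes did not overlap was not counted. The Dnmt3l call was lost with the counts of the fractions summed (log2 change 0.27, adjusted p = 0.0541) and without WT gradient 2 (0.24, adjusted p = 0.0743). Dnmt1, Uhrf1, Tet1 and Tet2 overlapped, with log2 differences of 0.08, 0.13, -0.09 and 0.04 and SEs of 0.09 to 0.17. A share of 57.3% of all genes was called in this comparison, so 4 of 8 is near the background.

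Members were next compared between the fractions of WT cells. In WT, Dnmt1 and the 3 TET mRNAs had their highest CPM in the low polysome, Dnmt3l in the high polysome and Uhrf1 in the monosome. Dnmt3b averaged 66.5, 65.6 and 71.1 CPM and Dnmt3a 30.7, 30.5 and 38.7 CPM, given from the lightest to the heaviest fraction. CPM is a share of each fraction's own counts, so these levels do not show where most copies lay. The low polysome over monosome comparison was added after the values had been seen. On the log2 scale that difference was 1.47 for Tet2 (limma, SE 0.18, adjusted p = 2.21e-06), 1.25 for Tet1 (SE 0.24, adjusted p = 2.90e-04), 0.91 for Tet3 (SE 0.21, adjusted p = 0.00127) and 0.83 for Dnmt1 (SE 0.13, adjusted p = 4.85e-05). Uhrf1 went the other way at -0.58 (SE 0.15, adjusted p = 0.00309). The single gradients of Tet2 lay at 1.39, 1.5 and 1.54, and those of Uhrf1 at -0.60, -0.61 and -0.56, so both were tight. Of all genes 43.2% were called in this comparison, 20.4% higher and 22.8% lower, beside 5 of 8 members, 4 higher and 1 lower.

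Translation level, the high polysome over the monosome, passed the threshold in WT for 1 of 8 members, where 61.1% of all genes passed, 28.9% higher and 32.2% lower. That member was Dnmt3l, at 1.04, 0.43 and 0.63 in the 3 WT gradients on the log2 scale and 0.70 in the fit (limma, SE 0.17, adjusted p = 0.00169). The other 7 lay between -0.31 for Uhrf1 and 0.41 for Tet2. With the gradient kept as a block, since its 3 fractions came from the same lysate, Tet1 (0.38, adjusted p = 0.0117) and Tet2 (0.43, adjusted p = 0.00888) passed too. The value of Tet2 lay close to the threshold (adjusted p = 0.0584) and was called under 8 of the 11 alternatives, among them edgeR and DESeq2 (adjusted p = 0.0385 and 0.0228) and without WT gradient 1 (0.51, adjusted p = 0.0256). Dnmt3a was called with no filter (0.45, adjusted p = 0.0304) and in DESeq2 (0.35, adjusted p = 0.0498), and Uhrf1 was called lower with only the groups compared (-0.31, adjusted p = 0.0487) and without WT gradient 3 (-0.47, adjusted p = 0.0331).

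In KO cells the high polysome exceeded the monosome for 7 of 8 members, where 68.5% of all genes were called and 35.0% were called in that direction. The log2 differences were 1.35 for Tet2, 1.07 for Dnmt3b, 0.98 for Tet1, 0.95 for Dnmt3l, 0.93 for Dnmt3a, 0.79 for Tet3 and 0.56 for Dnmt1, with adjusted p from 9.82e-07 to 9.22e-04 in limma. Uhrf1, at 0.19, was the exception (adjusted p = 0.230), and it passed when the sole clone 1 gradient, KO gradient 1, was left out (0.37, adjusted p = 0.0453).

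The KO effect on translation level, which is the KO difference less the WT difference, was positive for 8 of 8 members and passed the threshold for 4. How many of all genes had a positive effect was not counted, and their median effect was 0.022. Dnmt3b had the largest effect, 0.95 on the log2 scale (limma, SE 0.21, adjusted p = 0.00472). Single WT gradients had a log2 ratio of 0.01, -0.07 and 0.38 for this gene, and single KO gradients one of 0.81, 1.24 and 1.11. Dnmt3b was thus lower in KO in every fraction, with the smallest drop in the high polysome. Tet2 was close to it, with an effect of 0.94 (SE 0.25, adjusted p = 0.0152) and ratios of 0.36, 0.30 and 0.61 in WT and 1.51, 0.98 and 1.56 in KO. For Dnmt1 the effect was 0.74 (SE 0.19, adjusted p = 0.0106), with all WT ratios under 0 at -0.24, -0.28 and -0.04 and all KO ratios over 0 at 0.26, 0.70 and 0.70. Dnmt3a had an effect of 0.62 (SE 0.20, adjusted p = 0.0406), from 0.56, 0.33 and 0.13 in WT and 0.67, 1.05 and 1.07 in KO.

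The effects of Tet3 (0.67, SE 0.27, adjusted p = 0.0860), Tet1 (0.64, SE 0.34, adjusted p = 0.195), Uhrf1 (0.50, SE 0.20, adjusted p = 0.0843) and Dnmt3l (0.25, SE 0.25, adjusted p = 0.505) missed the threshold in limma. The ratios of Tet1 were 0.21, 0.39 and 0.48 in WT and 1.16, 0.69 and 1.07 in KO and did not overlap, although the SE of its effect was the largest of the 8. With the gradient as a block Tet1 was called (0.60, adjusted p = 0.0183). Uhrf1 was called without KO gradient 1 (0.68, adjusted p = 0.0259). Of all genes 10.7% were called higher and 7.09% lower (1357 and 901 genes, or 1157 and 1112 with the size factors of DESeq2 and 936 and 1386 with library size alone), against 4 and 0 of 8 members, and the median effect was 0.65 for the members and 0.022 for all genes.

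**Figure D3:**
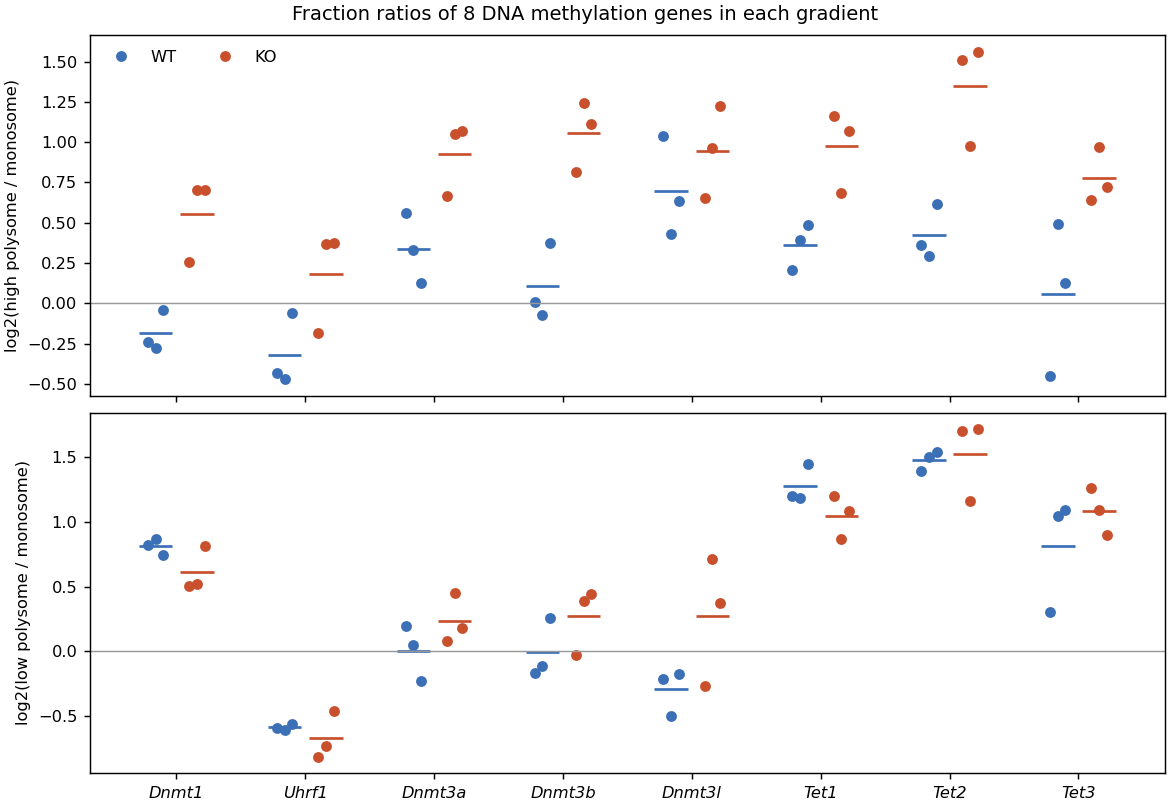
log2 ratio of high polysome to monosome (top) and of low polysome to monosome (bottom) for the 8 members, 1 point per gradient, WT in blue and KO in red, with bars at the means (n = 3). The KO points lie higher in the top panel, without overlap for every member but Uhrf1 and Dnmt3l, and the genotypes overlap for all members in the bottom panel. How often other genes lay without overlap was not counted.

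These calls depended on single gradients for all but Dnmt3b, which was called without any one of them. Dnmt1 missed the threshold without WT gradient 1 or 2 or KO gradient 2 or 3 (adjusted p 0.0517 to 0.0912), Dnmt3a without any of the WT gradients or KO gradient 2 or 3 (0.0931 to 0.187), and Tet2 without WT gradient 2 or KO gradient 3 (0.0849 and 0.111). At equal depth Dnmt1 and Dnmt3b were called, and Dnmt3a (0.55, adjusted p = 0.190) and Tet2 (0.71, adjusted p = 0.0668) were not. Dnmt3a was also not called with the size factors of DESeq2 (0.56, adjusted p = 0.0618) or with library size alone (0.49, adjusted p = 0.0805), and with no filter Dnmt3b alone was called, with adjusted p of 0.0543, 0.147 and 0.0646 for Dnmt1, Dnmt3a and Tet2. Of all genes 13.8% were called at equal depth, 17.9% with DESeq2 size factors, 18.3% with library size alone and 7.06% with no filter.

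Coding length moved with this effect across the table. Over 11778 genes with a coding length, longer genes had higher KO effects (Spearman's rho 0.542 across genes, which are not independent replicates), and 7 of the 8 members were longer than the median of 1371 nt. Dnmt3l is the short one at 1263 nt, Uhrf1, Dnmt3b and Dnmt3a are 2346, 2580 and 2724 nt long, and Dnmt1, Tet3, Tet2 and Tet1 are 4860, 5409, 5760 and 6117 nt long. A smooth trend on length took the value 0.57 at Dnmt1, 0.41 at Dnmt3a, 0.39 at Dnmt3b and 0.61 at Tet2. With the trend removed the effects were 0.17, 0.21, 0.56 and 0.33, and 0 of 8 members were called in limma, with 1 member, Dnmt3b, at an unadjusted p under 0.05 (adjusted p = 0.117). Calls over all genes fell as well, to 5.93% of those 11778, so 0 of 8 is near the background. Tet1 and Tet3 fell on the trend, at 0.0089 and 0.070 above it. Whether length has a part in the members' effects was not tested beyond this.

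**Figure D4:**
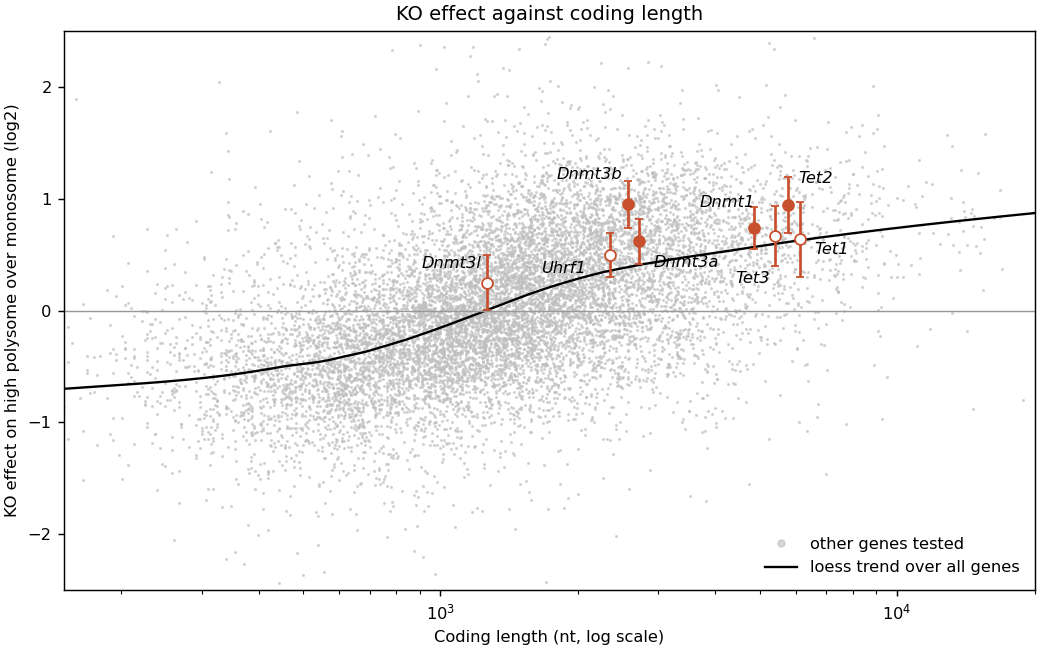
KO effect on the log2 ratio of high polysome to monosome against coding length (log axis) for the genes tested (grey), with a loess trend (black) and the 8 members in red with their SE, filled where called. All 8 members lie on or above the trend, Dnmt3b 0.56 above it and Tet1 0.0089 above it. How many other genes lay above it was not counted.

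For the low polysome no such call was made. The KO effect on the low polysome over the monosome passed the threshold for 0 of 8 members in limma, edgeR and DESeq2, with 1 at an unadjusted p under 0.05, and for 4.71% of all genes (2.31% higher, 2.39% lower). Values lay between -0.21 for Dnmt1 and 0.57 for Dnmt3l. The shift within polysomes was then taken directly as the KO effect on the high over the low polysome, a comparison added after the values had been seen. It was 0.94 for Dnmt1 (limma, SE 0.18, adjusted p = 0.00622) and 0.88 for Tet2 (SE 0.24, adjusted p = 0.0437), where 4.42% of all genes were called and 3.39% were called higher. Dnmt1 lay at -1.07, -1.14 and -0.79 in WT and at -0.25, 0.18 and -0.12 in KO on the log2 scale, and Tet2 at -1.03, -1.21 and -0.93 in WT and -0.19, -0.18 and -0.16 in KO. Tet1 had ratios of -0.99, -0.79 and -0.96 in WT and -0.04, -0.18 and -0.01 in KO, apart as clearly, with an effect of 0.84 that was called with the gradient as a block (adjusted p = 0.0113) and not without it (adjusted p = 0.138). The Dnmt1 call was lost without WT gradient 1 or 2 or KO gradient 3 (adjusted p 0.0573 to 0.0890), and that of Tet2 without any single gradient (0.0559 to 0.209) and at equal depth (0.135). Calls over all genes fell as well, from 4.42% to 0.33%, 0.56% and 1.68% without WT gradient 1, 2 or 3. Without KO gradient 1, 2 or 3 they were at 6.41%, 2.05% and 0%, and at equal depth at 1.78%. With the length trend removed, the effects of Dnmt1 and Tet2 were 0.40 and 0.26 and neither was called, where 0.48% of all genes were.

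Within the TET family the mean ratio of Tet3 to Tet1 counts was higher in KO in each fraction. The genotypes were apart in the low polysome only. Tet3 counts were 0.115 ± 0.037 of Tet1 counts in the WT low polysome and 0.258 ± 0.064 in KO (SD, n = 3), with no overlap and an exact permutation p of 0.1, the smallest possible. The ratio overlapped between genotypes in the monosome (0.169 ± 0.10 in WT, 0.248 ± 0.052 in KO, exact p = 0.3) and the high polysome (0.128 ± 0.049 in WT, 0.218 ± 0.043 in KO, exact p = 0.2). Adjusted over the 12 comparisons of count ratios, the exact permutation p was 0.36, 0.171 and 0.3 from monosome to high polysome. Tet2 counts were 1.07 to 1.23 times Tet1 counts in the WT fractions and 1.03 to 1.43 times in KO, at exact p of 0.3 to 0.7. Over the 18 libraries Tet1 and Tet2 had a Pearson r of 0.938, the highest of any pair of members, as points that share libraries and fractions.

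Among 36 other genes of DNA methylation, listed by role with earlier results of these data known, 34 were tested. The KO effect on translation level was higher for 9 and lower for 1 of them, where 10.7% and 7.09% of all genes were, and their median was 0.39. The 9 became 3 with the length trend removed, 6 with library size alone or no filter, 5 at equal depth, 5 without KO gradient 2 and also without WT gradient 1 or 2, and 3 without KO gradient 3. Genes called higher over the whole table fell as well, from 1357 to 425 with the trend removed. They numbered 936 with library size alone, 978 with no filter and 736 at equal depth. Without WT gradient 1 or 2 they were 618 and 621, and without KO gradient 2 or 3 they were 869 and 471. The repressor Rbl2, a pocket protein known to hold down Dnmt3 genes, had the largest effect. It was at 5.65, 6.10 and 6.12 CPM in the WT high polysome and 14.4, 14.2 and 13.9 CPM in KO, and its monosome level was 10.8, 10.5 and 12 CPM in WT and 8.68, 10.6 and 6.67 CPM in KO. The high polysome groups were far apart and the monosome groups overlapped. The KO effect was 1.63 (limma, SE 0.30, adjusted p = 0.00136), while abundance over the fractions differed by 0.17 (adjusted p = 0.289). Prdm14, another repressor of Dnmt3b, was higher in the KO high polysome by 0.55 (SE 0.18, adjusted p = 0.0143), with a KO effect of 0.40 (adjusted p = 0.279) and an abundance difference of 0.21 (adjusted p = 0.124). The other 2 listed repressors, named after their values were seen, were not called higher. E2f4 was called lower in the KO high polysome, at -0.68 (SE 0.25, adjusted p = 0.0330), and in abundance, at -0.52 (SE 0.11, adjusted p = 0.00122), and Rbl1 differed by 0.24 (adjusted p = 0.302) and 0.18 (adjusted p = 0.363). The part of these repressors in the fall of Dnmt3b or the rise of Dnmt3a was not tested.

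The other large effects in this list fell to genes of several roles. Zbtb4, a reader of methylated DNA, had a KO effect of 1.21 (SE 0.32, adjusted p = 0.0136). Trim28, a corepressor that keeps imprints and transposons methylated, had 1.15 (SE 0.23, adjusted p = 0.00282), and the DNA ligase gene Lig1 had 1.09 (SE 0.24, adjusted p = 0.00505). Dppa3, whose protein keeps UHRF1 away from chromatin, was the 1 listed gene called lower, at -1.38 (SE 0.25, adjusted p = 0.00119). Dppa3 was at 36.2, 40.9 and 37.7 CPM in the WT high polysome and 12.9, 19 and 13.6 CPM in KO, against 19.5, 16 and 20.5 CPM and 21.3, 17 and 18.9 CPM in the monosome.

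In abundance over the fractions, 3 of the 34 were higher and 11 lower in KO. Those that fell most were Ahcy, which clears the by-product of methylation, by 0.79 (limma-trend, SE 0.13, adjusted p = 2.50e-04), Dppa3 by 0.78 (SE 0.10, adjusted p = 2.54e-05), Cdca7, a partner of the remodeller HELLS, by 0.76 (SE 0.10, adjusted p = 1.95e-05), Idh1, which makes the TET cosubstrate 2-oxoglutarate, by 0.70 (SE 0.09, adjusted p = 2.40e-05), and Mbd3, a NuRD subunit, by 0.68 (SE 0.09, adjusted p = 2.71e-05). Of 11 targeting and maintenance partners 6 were lower and 1 higher, and of 7 readers tested 1 was lower and 1 higher. All genes were called lower at 28.7% and higher at 28.5%, and the list's median was -0.15.

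For each member the tested gene with the most similar profile over the 18 libraries was also found. By Pearson's r of log2 CPM these were Nipbl for Tet1 (0.974), Taok1 for Tet2 (0.972), Ets2 for Dnmt3a (0.965), Adamts15 for Dnmt3b (0.964), Rab11fip1 for Dnmt3l (0.961), Dot1l for Dnmt1 (0.934), Dnah10 for Tet3 (0.924) and Kif20a for Uhrf1 (0.891). Each is the highest over all 12705 genes tested and is given as a description, since all libraries share fractions and genotypes. Dnmt3a and Dnmt3b had an r of -0.34 with each other, and Dnmt3a and Dnmt3l one of 0.75.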

How the data were processed

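Per the labels and methods, 3′ end libraries (QuantSeq 3′ FWD) were made from gradient fractions, trimmed with cutadapt 1.14 and mapped uniquely with STAR 2.5.3a. The authors deposited one table of counts per gene by featureCounts 1.5.3, counted by strand against Gencode M14 (mm10, GRCm38). Names, coordinates, coding lengths and 3′ UTRs came from Gencode M21 on the same assembly. All 18 columns were used, and 0 were left out. PCR copies are among the counts. Unique mapping undercounts near-identical copies, and Dnmt3a-ps1, Dnmt3l-ps1 and Dnmt3c had 0 counts.

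Genes with 3 CPM in 3 libraries were kept (12705, with 99.6% of the counts), TMM-scaled with edgeR 4.0.16, and modelled as 6 group means with limma-voom (limma 3.58.1 under R 4.3.3). The study's methods name this filter, limma and an interaction term, and state no scaling or block. Abundance was tested with limma-trend on each gradient's mean log2 CPM (pseudocount 0.5). Calls are two-sided, at 0.05 after Benjamini-Hochberg adjustment across every gene tested. Every change is relative to the typical gene. The scripts were tested on simulated data.

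Members and lists were chosen with earlier results of these data known. The rule for named genes took the members, Ddx6, the 5 largest called genes of the list of 36 in each of 2 comparisons, Rbl2, Prdm14 and the gene most like each member. Alternatives were the size factors and Wald test of DESeq2 1.42.0, edgeR's quasi-likelihood test, library size alone, no filter, only the groups compared, equal depth, blocks, a loess trend on coding length removed (span 0.5), summed fractions and leaving out each gradient. Per the labels and methods the 3 fractions of a gradient share a lysate, so they are paired. The main fit held no such pairing, which entered only with the gradient as a block. The correlation of their deviations from the group means was -0.18 to 0.48 (median 0.090). For fractions of a genotype from different gradients it was -0.50 to 0.56 (median -0.046). KO gradients are numbered as in the file's columns, with clone 2's as 2 and 3.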

Additional observations from a re-analysis of the deposited data

Results flagged for a closer look

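The change from WT to KO in the high polysome over the monosome is listed for 4 members because a test of the difference between genotypes passed the threshold: on the log2 scale it was 0.74 for Dnmt1, 0.62 for Dnmt3a, 0.95 for Dnmt3b and 0.94 for Tet2 (limma, adjusted p 0.00472 to 0.0406). In the high over the low polysome the same held for Dnmt1, at 0.94, and Tet2, at 0.88. Reads on the ERCC spike-in sequences, which entered no comparison, came to 1006 over the 18 libraries, with 28 to 169 in each.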

How the results depend on the processing

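Of 36 member values called over the 10 comparisons, 26 were called under every alternative tried and 0 changed direction in any. How often the calls of other genes held was not counted. Of the 44 not called, 15 were called under some alternative and 12 changed sign in some. The falls of Dnmt3b and the rises of Dnmt3a and Tet3 in the low polysome, the high polysome and abundance were among those that held throughout. The cause of the moves below was not tested, apart from what each setting changes by construction.

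Members called in the KO effect on the high polysome over the monosome went from 4 to 1 with no filter, 2 at equal depth, 0 with the length trend removed and 1 to 5 without single gradients. Over all genes, calls in that comparison went from 17.8% to 7.06% with no filter, 13.8% at equal depth and 5.93% with the trend removed. Without single gradients they were at 5.93% to 20.8%. Members called in the monosome went from 3 to 1 at equal depth and 1 to 2 without single gradients. The share of all genes called there went from 38.6% to 34.3% at equal depth and 29.5% to 36.3% without single gradients. In WT, members called for the high polysome over the monosome went from 1 to 2 with DESeq2 size factors, edgeR or equal depth, to 3 with no filter, DESeq2, only the groups compared or the gradient as a replicate block, and to 1 to 2 without single gradients. The share of all genes called for it was 61.1%, and 51.8% to 67.9% under these settings. For the KO effect on the high over the low polysome the 2 members called became 1 with DESeq2 size factors, library size alone, no filter, only the groups compared or equal depth, 0 with the length trend removed, and 0 to 2 without single gradients. Of all genes 4.42% were called, and 1.28% to 4.20% under the scaling, filter, group and depth settings. That share was 0.48% with the trend removed and 0% to 6.41% without single gradients. In the same comparison Dnmt3b was called in DESeq2 (0.62, adjusted p = 0.0478), where 8.05% of all genes were. Tet1 was called with the gradient as a block, where 4.86% were. Uhrf1 was called without KO gradient 1 (0.71, adjusted p = 0.0476). The median over all genes of the KO effect on the high polysome over the monosome was 0.022 under TMM scaling, -0.031 under DESeq2 size factors and -0.10 under library size alone.

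Sign changes were all in values that were not called. Uhrf1 in the monosome was -0.014 with DESeq2 size factors, -0.015 in DESeq2, -0.038 at equal depth, -0.0031 with the replicate number as a block and -0.11 to 0.12 without single gradients, and Dnmt1 there was 0.0085 with no filter. Dnmt3l in the monosome was -0.11 to 0.15 without single gradients. In the WT low polysome over the monosome, Dnmt3a was 0.069 with no filter, 0.072 at equal depth and -0.10 to 0.12 without single gradients, and Dnmt3b was -0.011 in edgeR, -0.0071 in DESeq2, -0.0017 with the gradient block and -0.14 to 0.073 without single gradients. For the WT high polysome over the monosome, Tet3 was -0.11 to 0.36 and Dnmt3b -0.039 to 0.21 without single gradients. In the KO effect on the low polysome, Tet2 was -0.057 to 0.25 and Tet3 -0.0033 to 0.31 without single gradients. Tet3 in the KO effect on the high over the low polysome was -0.11 with the length trend removed. Tet2 abundance was -0.0088 with summed fractions and -0.14 to 0.15 without single gradients, and Tet1 abundance was -0.33 to 0.092.

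WT and KO gradients share only a number, and the deviations of same-numbered libraries of a fraction correlated at -0.51 to 0.25. Those of differently numbered ones correlated at -0.41 to 0.56. With that number as a replicate block, monosome, low polysome and high polysome calls numbered 3, 5 and 7 in place of 3, 4 and 6, the added one being Tet1 (-0.45 and 0.39). Of all genes 40.2%, 49.3% and 47.6% were called with that block, in place of 38.6%, 47.7% and 46.5%. The gradient block changed no call other than those of Tet1 and Tet2 given above. Depth limits every value through the 48 to 4363 counts behind it.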
